A study of Mus musculus with 12 samples.

Results

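Dendritic cells take up antigen in the airways and alveoli, carry it to the draining lymph node and present it to T cells, and their lung subsets are told apart by a small set of genes. The set described here held 10 such genes, Flt3, Ccr7, Cd209a, Xcr1, Siglech, Batf3, Zbtb46, Clec9a, Itgae and Cd207. Members were all probe sets of the deposited table whose annotation named exactly 1 of these symbols, which gave 13 probe sets for 9 of the 10 genes, out of 45101 probe sets and 18194 genes with a probe set of their own in the whole table. Clec9a, a receptor for dead cells on cross-presenting dendritic cells, had no such probe set and was not analysed here. All 13 probe sets passed the filter on low values, which required a signal above the 20th percentile in at least 1 array.

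Total RNA came from the homogenised left lung of individual mice, with 3 mice in each of 4 groups and 1 Affymetrix Mouse Genome 430 2.0 array for each mouse. Nfkb1KO-O3 and Nfkb1KO-Air were Nfkb1-/- mice (B6;129P-Nfkb1tm1Bal/J), in which NF-κB p50/p105 is missing from every cell from birth, after continuous 0.3 ppm O3 for 48 h and after filtered air in a separate chamber. WT-O3 and WT-Air were Nfkb1+/+ mice (B6129PF2/J) under the same exposures. Each exposure had its own chamber, so that chamber and exposure cannot be told apart. All were young adult males, both genotypes were of mixed B6 and 129 background, and the wild types were bought as a separate strain, so that genotype and any background difference between the strains cannot be told apart.

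Conventional dendritic cells arise from bone marrow precursors that depend on the receptor Flt3, and in the mouse they share the transcription factor Zbtb46. Type 1 cells (cDC1) need Batf3, carry Xcr1 and Clec9a and, in the lung, the integrin Itgae (CD103) and often the lectin Cd207 (langerin). Type 2 cells (cDC2) and dendritic cells derived from monocytes carry lectins such as Cd209a. Siglech marks mouse plasmacytoid dendritic cells (pDC), which make type I interferon, and Ccr7 guides mature cells to the lymph node. None of these genes lies on the chromosome that carries Nfkb1. In homogenised lung, fewer cells of a type and less RNA per cell cannot be told apart.

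Cd209a was the member with the largest genotype difference over both exposures, and it was higher in Nfkb1KO lungs, while Itgae was lower in Nfkb1KO lungs and was the only member called in any comparison. Of the other 10 probe sets none was higher in Nfkb1KO lungs over both exposures, and none of those differences passed the adjusted threshold. O3 moved no member past that threshold in either genotype in the fit of all arrays. Values below are normalised log2 signals, so that a difference of 1 is a 2-fold difference, and a member was called at a limma adjusted p under 0.05 over all 42559 probe sets tested.

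The lung arrays were alike except for a pair and, to a lesser degree and in muscle signal, Nfkb1KO-O3 replicate 2. The median signal as deposited lay between 99.14 and 121.2 in 11 arrays and was 180.1 in Nfkb1KO-Air replicate 1, whose rank correlation with the other arrays was 0.915 to 0.93, against 0.947 to 0.969 among the rest. WT-Air replicate 3 had a log2 signal of 12.3 for the muscle myosin Myh4. Nfkb1KO-O3 replicate 2 had 7.9, and the other arrays had 0.7 to 4.9. The MHC class II gene H2-Aa lay between 12.76 and 13.62 over all lungs and the integrin Itgax (CD11c) between 8.76 and 9.5. Conventional dendritic cells carry both genes but are not the only lung cells to do so. These levels therefore do not show how many dendritic cells a lung held. All arrays stay in the values below.

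Cd209a encodes a C-type lectin that binds mannose-rich glycans and is a mouse homologue of DC-SIGN. Its probe set 1426172_a_at had log2 signals of 9.74, 9.62 and 9.66 in Nfkb1KO-Air lungs, against 9.01, 5.92 and 6.47 in WT-Air lungs. After O3 it had 8.69, 8.60 and 8.80 in Nfkb1KO-O3 lungs, against 7.62, 8.45 and 6.48 in WT-O3 lungs. Every Nfkb1KO lung lay above every WT lung of the same exposure, and the Nfkb1KO lungs were close together while the WT lungs were widely spread.

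The genotype difference of Cd209a was 2.54 ± 0.63 in air (SE, n = 3 per group, 5.82-fold, adjusted p = 0.184) and 1.18 ± 0.63 after O3 (2.27-fold, adjusted p = 0.717). The mean of both differences was 1.86 ± 0.44 (3.63-fold, adjusted p = 0.072), so that Cd209a was not called in any of these 3 comparisons with all arrays. The result in air turned on WT-Air replicate 1, the WT-Air lung with the level nearest to the Nfkb1KO lungs. Without that array the difference in air was 3.47 ± 0.41 (adjusted p = 0.00378) and over both exposures 2.33 ± 0.27 (adjusted p = 0.00106). The same lung also had the highest WT-Air signals of the chemokines Ccl17 and Ccl22, at 8.38 and 6.89, against 7.34 to 7.45 and 5.54 to 5.74 in the other WT-Air lungs. The study singled out Cd209a in air on these same arrays, so its choice is not independent of its level there.

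O3 was followed by a lower level of Cd209a in Nfkb1KO lungs, where the O3 and air groups did not overlap, but the difference of −0.98 ± 0.63 did not pass the threshold when all groups shared 1 estimate of the spread (adjusted p = 0.45). In a fit of the Nfkb1KO arrays alone the same difference had an SE of 0.13 and was called (adjusted p = 0.0192). In WT lungs the difference between O3 and air was 0.38 ± 0.63 (adjusted p = 0.848). The interaction, the O3 difference in Nfkb1KO mice minus that in WT mice, was −1.36 ± 0.89 (95% interval −3.27 to 0.56, adjusted p = 0.933), so that the effect of O3 was not shown to depend on genotype.

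Cd209a lies in a cluster of closely related lectin genes, and a probe set ending in _a_at reads several transcripts of 1 gene. Because the genotype concerns NF-κB, the 250 bases before the start of Cd209a are shown from RefSeq (GRCm38.p6, chr8:3748985-3749234, minus strand). They were searched on both strands for the NF-κB motif GGGNNTTNCC, the interferon-response motif GAAANNGAAA and the STAT motif TTCNNNGAA, none of which was found, hence the run holds no capitals.
Cd209a: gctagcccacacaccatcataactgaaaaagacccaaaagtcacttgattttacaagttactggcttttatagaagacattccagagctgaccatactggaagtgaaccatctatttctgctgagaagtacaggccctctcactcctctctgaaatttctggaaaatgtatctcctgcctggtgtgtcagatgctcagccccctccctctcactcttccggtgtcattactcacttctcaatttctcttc
Windows of this length were found for 8 of the 10 members. GGGNNTTNCC and GAAANNGAAA were in 0 of the 8, against 4.11% and 2.98% of 32851 promoters, and TTCNNNGAA was in those of Siglech and Batf3, against 7.02% of all promoters.

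Monocyte-derived cells also carry Cd209a, and some monocyte and macrophage markers were higher in the same lungs. Over both exposures, the monocyte chemokine receptor Ccr2 was higher in Nfkb1KO lungs by 0.85 (1.81-fold, adjusted p = 0.0318) and the high-affinity IgG receptor Fcgr1 by 0.89 (1.86-fold, adjusted p = 0.00529), whereas the macrophage scavenger receptor Marco was lower, with a difference of −1.31 (adjusted p = 0.000742). These were 3 of the 11 markers measured, against 1.57% of the 17569 genes read by 1 probe set each, and the median difference of the list was 0.04. The study had named Ccr2 and Marco from these same arrays, so that count is not independent of their choice. For O3 against air in Nfkb1KO lungs, where Cd209a differed by −0.98, Ccr2 was also lower (−1.01, adjusted p = 0.0388) and Marco higher (1.93, adjusted p = 0.0012), as 2 of 11 markers against 4.76% of all genes. The mean log2 signal of the list per array was 9.29 to 9.49 in Nfkb1KO-Air and 9.26 to 9.53 in WT-Air lungs, and 9.37 to 9.66 in Nfkb1KO-O3 and 9.3 to 9.48 in WT-O3 lungs. Their part in the Cd209a differences was not tested.

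Itgae encodes the αE chain (CD103) of an integrin that binds E-cadherin on epithelium, and it is carried by lung cDC1 and by T cells that reside in epithelium. Probe set 1447541_s_at had log2 signals of 8.39, 7.21 and 7.53 in Nfkb1KO-Air lungs, against 7.99, 8.41 and 8.87 in WT-Air lungs. It had 7.06, 7.03 and 7.39 in Nfkb1KO-O3 lungs, against 8.57, 8.45 and 8.22 in WT-O3 lungs. In air the groups overlapped through Nfkb1KO-Air replicate 1, the array with the high median, and after O3 all Nfkb1KO lungs lay below all WT lungs.

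The genotype difference of this probe set was −0.71 ± 0.29 in air (adjusted p = 0.475), where it was −1.08 without Nfkb1KO-Air replicate 1 and −0.46 without Nfkb1KO-Air replicate 2, and −1.25 ± 0.29 after O3 (2.38-fold lower, adjusted p = 0.117). Over both exposures it was −0.98 ± 0.20 (1.98-fold lower in Nfkb1KO, 95% interval −1.42 to −0.54, adjusted p = 0.0375), the call named above. The interaction was −0.54 ± 0.41 (adjusted p = 0.933), so a difference between air and O3 was not shown. The call was a close one. It was lost, at adjusted p between 0.0576 and 0.102, when any of 10 arrays was left out in turn, all apart from Nfkb1KO-Air replicate 1 and WT-Air replicate 1, while the difference stayed between −1.18 and −0.85. It was also lost without the mean-dependent trend in the prior spread (adjusted p = 0.135) and with the replicate number as a block (adjusted p = 0.069). Without the pair of arrays that stood apart it was −1.08 (adjusted p = 0.00692), and the difference after O3 was then also called, at −1.30 (adjusted p = 0.0126). Leaving out Nfkb1KO-Air replicate 1 alone likewise called the difference after O3 (−1.29 ± 0.22, adjusted p = 0.0286).

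The other Itgae probe set, 1449216_at, ran the same way with more scatter. It had log2 signals of 3.99, 5.76 and 5.99 in Nfkb1KO-Air lungs, against 6.43, 6.93 and 6.73 in WT-Air lungs, and 5.62, 6.46 and 5.56 in Nfkb1KO-O3 lungs, against 7.19, 6.87 and 5.74 in WT-O3 lungs. The groups did not overlap in air and overlapped after O3. The difference over both exposures was −1.08 ± 0.37 (adjusted p = 0.268). It was −1.45 ± 0.53 in air, and −0.84 ± 0.44 without Nfkb1KO-Air replicate 1, the array with the high median, whose value of 3.99 was under the limit of 4.37. After O3 it was −0.72 ± 0.53, and −0.42 ± 0.59 without WT-O3 replicate 1 and −1.15 ± 0.55 without WT-O3 replicate 3. A name ending in _s_at means that a probe set can match transcripts of more than 1 gene, and 1449216_at has no such mark.

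T cells share Itgae, and of 9 T cell markers measured none was called in any comparison, with 0 of 9 also at an unadjusted limma p under 0.05 for genotype in air, after O3 and over both exposures, against 11.4%, 9.37% and 13.2% of all genes. Their mean log2 signal per array was 6.09 to 6.56 in Nfkb1KO-Air and 6.35 to 6.82 in WT-Air lungs, and 6.2 to 6.67 in Nfkb1KO-O3 and 6.06 to 6.13 in WT-O3 lungs. The median genotype difference of the list was −0.25 in air and 0.36 after O3, where Itgae was lower in Nfkb1KO. Cd3e, a chain of the T cell receptor complex, averaged 5.71 in Nfkb1KO-Air and 6.77 in WT-Air lungs, and 5.97 in Nfkb1KO-O3 and 5.18 in WT-O3 lungs. Cd4 was at or near the lower limit of 4.37 in all groups, with no lung above 4.43. Natural killer (NK) cell markers, which mark another kind of lymphocyte, were higher in Nfkb1KO lungs over both exposures for all 6 of the 6 measured, against 1.57% of all genes, Gzma by 2.17 (4.49-fold, adjusted p = 9.5e-06). The study had named Gzma, Nkg7 and Ncr1 from these same arrays, so that count is not independent of their choice. The part of T cells and NK cells in the Itgae difference was not tested.

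**Figure D1:**
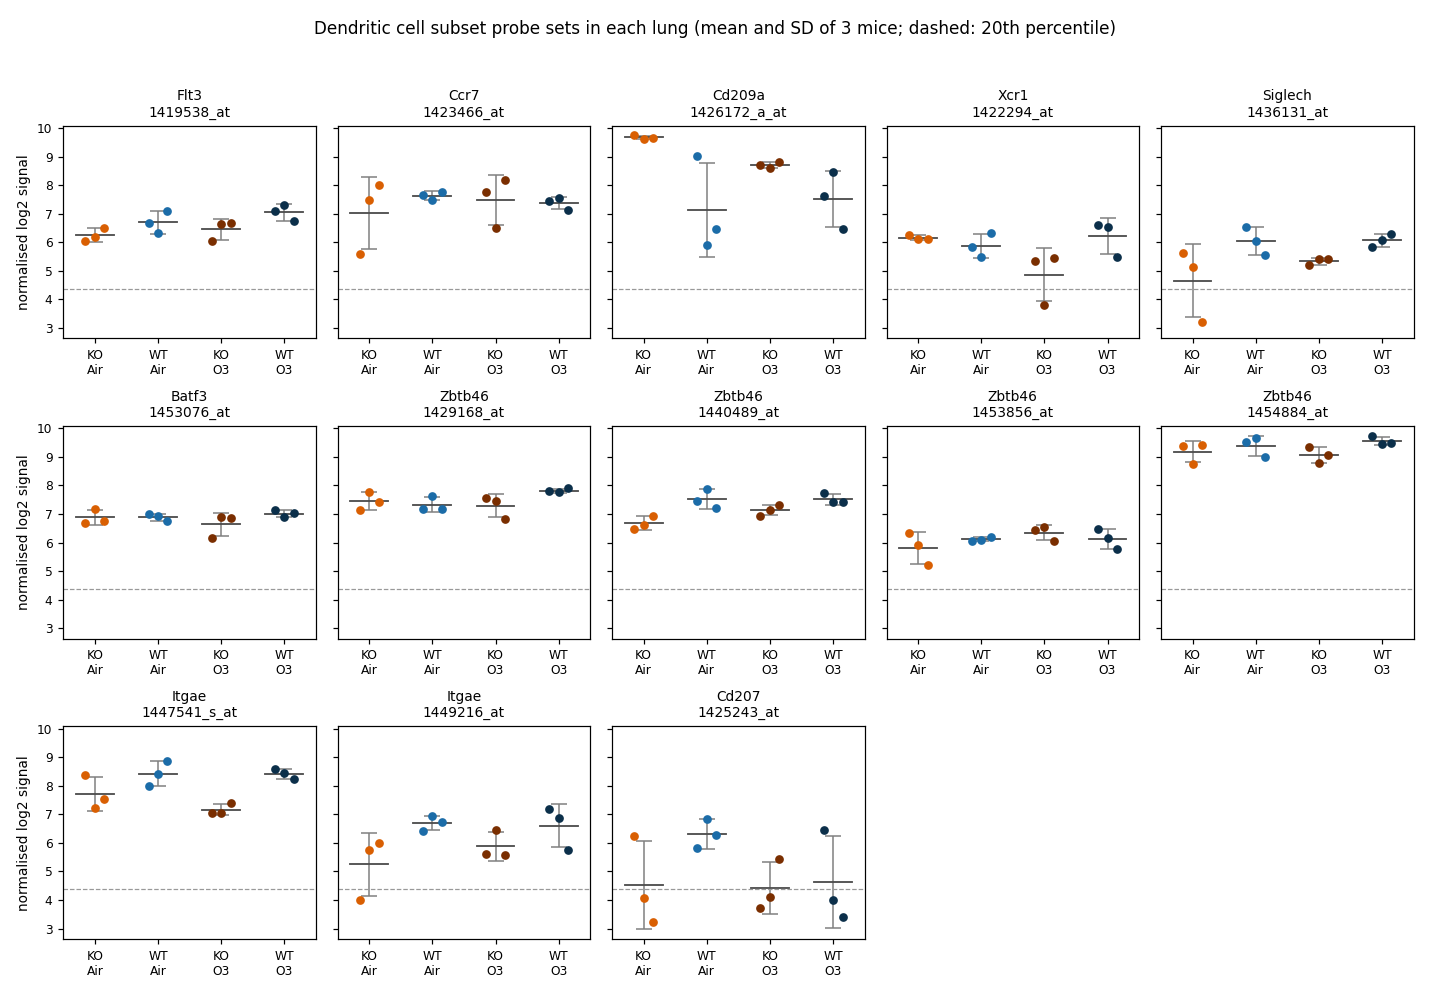
Normalised log2 signal (vertical axis) of the 13 probe sets in each of the 12 lungs, grouped left to right as Nfkb1KO-Air, WT-Air, Nfkb1KO-O3 and WT-O3, with points for mice, a horizontal line for the mean of 3, bars for the SD and a dashed line at 4.37, the 20th percentile. Cd209a stands above WT in every Nfkb1KO lung of the same exposure, and Itgae 1447541_s_at lies between 7.03 and 7.39 in Nfkb1KO-O3 against 8.22 to 8.57 in WT-O3.

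The other cDC1 members were Xcr1, Batf3 and Cd207. Xcr1 is the receptor for the chemokine Xcl1, which NK cells and CD8+ T cells release. Its log2 signals were 6.25, 6.10 and 6.11 in Nfkb1KO-Air lungs, against 5.84, 5.48 and 6.32 in WT-Air lungs. They were 5.35, 3.79 and 5.44 in Nfkb1KO-O3 lungs, against 6.60, 6.55 and 5.50 in WT-O3 lungs. The 3 Nfkb1KO-O3 lungs were the lowest of all 12, 1 of them under the limit of 4.37.

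The Xcr1 genotype difference was −1.35 ± 0.48 after O3 (2.55-fold lower, adjusted p = 0.426) and 0.28 ± 0.48 in air (adjusted p = 0.89). O3 against air gave −1.30 ± 0.48 in Nfkb1KO lungs (adjusted p = 0.163) and 0.33 ± 0.48 in WT lungs (adjusted p = 0.817). The interaction of −1.63 ± 0.67 had an unadjusted limma p of 0.0306 and an adjusted p of 0.933. None of these was called. Nfkb1KO-O3 replicate 2, the lung at 3.79, carried much of them, and it was also the lung with a Myh4 log2 signal of 7.9. Without that lung the Xcr1 difference was −0.82 ± 0.42 for genotype after O3 and −0.76 ± 0.42 for O3 in Nfkb1KO. The ligand Xcl1 was not called either, with log2 signals of 7.16, 6.19 and 6.86 in Nfkb1KO-O3 lungs, against 4.05, 6.33 and 5.53 in WT-O3 lungs (1.43 ± 0.60, adjusted p = 0.576).

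Batf3, the transcription factor that cDC1 require, showed little spread. Its log2 signals were 6.70, 7.18 and 6.76 in Nfkb1KO-Air lungs, against 6.99, 6.93 and 6.75 in WT-Air lungs, and 6.15, 6.88 and 6.87 in Nfkb1KO-O3 lungs, against 7.13, 6.89 and 7.03 in WT-O3 lungs. The difference over both exposures was −0.19 ± 0.18, with a 95% interval of −0.59 to 0.20, and in air it was −0.01 ± 0.26, with an interval of −0.57 to 0.55 and a sign that flipped with the signals as deposited.

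Cd207 (langerin), a lectin of Langerhans cells and of a share of lung cDC1, was mostly at the bottom of the scale. Its log2 signals were 6.25, 4.08 and 3.24 in Nfkb1KO-Air lungs, against 5.81, 6.84 and 6.27 in WT-Air lungs, and 3.72, 4.11 and 5.45 in Nfkb1KO-O3 lungs, against 6.45, 3.99 and 3.41 in WT-O3 lungs. Of the 12 lungs, 6 were at or below the limit of 4.37, and only WT-Air had all 3 lungs above it. The genotype difference was −1.79 ± 0.87 in air (adjusted p = 0.555) and −0.19 ± 0.87 after O3 (adjusted p = 0.992). In WT lungs O3 minus air was −1.69 ± 0.87 (adjusted p = 0.379), and with this spread a difference of that size was not distinguishable from none.

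Flt3, the receptor tyrosine kinase of dendritic cell precursors and of conventional cells, had log2 signals of 6.03, 6.20 and 6.51 in Nfkb1KO-Air lungs, against 6.66, 6.31 and 7.11 in WT-Air lungs. After O3 they were 6.04, 6.64 and 6.68 in Nfkb1KO-O3 lungs, against 7.08, 7.32 and 6.74 in WT-O3 lungs. The groups overlapped in air and did not overlap after O3. The difference was −0.52 ± 0.21 over both exposures (1.44-fold lower in Nfkb1KO, adjusted p = 0.375).

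Zbtb46, a zinc finger factor of conventional dendritic cells that mouse endothelium also makes, was read by 4 probe sets that did not all behave alike. Probe set 1440489_at had log2 signals of 6.48, 6.61 and 6.94 in Nfkb1KO-Air lungs, against 7.47, 7.88 and 7.21 in WT-Air lungs, and 6.94, 7.15 and 7.30 in Nfkb1KO-O3 lungs, against 7.73, 7.41 and 7.41 in WT-O3 lungs. All Nfkb1KO lungs lay below all WT lungs in both exposures, with a difference of −0.62 ± 0.17 over both (1.53-fold lower, adjusted p = 0.12).

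Zbtb46 probe set 1454884_at had log2 signals of 9.39, 8.76 and 9.41 in Nfkb1KO-Air lungs, against 9.52, 9.65 and 9.0 in WT-Air lungs. It had 9.35, 8.78 and 9.05 in Nfkb1KO-O3 lungs, against 9.73, 9.45 and 9.49 in WT-O3 lungs, and over both exposures it differed by −0.35 ± 0.15 (adjusted p = 0.406). Probe set 1429168_at had 7.15, 7.78 and 7.42 in Nfkb1KO-Air lungs, against 7.18, 7.62 and 7.17 in WT-Air lungs, and 7.57, 7.46 and 6.83 in Nfkb1KO-O3 lungs, against 7.79, 7.76 and 7.90 in WT-O3 lungs. Both kept apart after O3 only, with differences there of −0.50 ± 0.21 and −0.53 ± 0.24 (adjusted p = 0.584 and 0.643), the one of 1429168_at being −0.30 without Nfkb1KO-O3 replicate 3. Probe set 1453856_at ran from 5.22 to 6.55 over all lungs and gave −0.04 ± 0.24 over both exposures, with a sign that flipped with the signals as deposited. The mean log2 signal of the 8 endothelial markers was 11.77 to 11.88 in Nfkb1KO-Air and 11.76 to 12.18 in WT-Air lungs, and 11.26 to 11.63 in Nfkb1KO-O3 and 11.6 to 11.71 in WT-O3 lungs. None of the 8 was called for genotype. Over both exposures all 8 were lower in Nfkb1KO (median −0.18), with 2 at an unadjusted limma p under 0.05, against 13.2% of all genes. After O3, 7 of 8 were lower in Nfkb1KO (median −0.26), with 2 at that p, against 9.37% of all genes. The part of endothelium in the Zbtb46 values was not tested.

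Siglech, a sialic acid-binding lectin of mouse pDC, had log2 signals of 5.63, 5.13 and 3.21 in Nfkb1KO-Air lungs, against 6.52, 6.04 and 5.54 in WT-Air lungs. It had 5.2, 5.40 and 5.42 in Nfkb1KO-O3 lungs, against 5.84, 6.07 and 6.30 in WT-O3 lungs. After O3 all Nfkb1KO lungs lay below all WT lungs, and in air the groups overlapped. The difference over both exposures was −1.05 ± 0.38 (2.08-fold lower, adjusted p = 0.302). Nfkb1KO-Air replicate 3, at 3.21, was under the limit of 4.37, and without it the difference over both exposures was −0.69. The 250 bases before Siglech, from RefSeq (GRCm38.p6, chr7:55767934-55768183, plus strand), are shown because they hold a match to the STAT motif, at position −123 from the start and in capitals.
Siglech: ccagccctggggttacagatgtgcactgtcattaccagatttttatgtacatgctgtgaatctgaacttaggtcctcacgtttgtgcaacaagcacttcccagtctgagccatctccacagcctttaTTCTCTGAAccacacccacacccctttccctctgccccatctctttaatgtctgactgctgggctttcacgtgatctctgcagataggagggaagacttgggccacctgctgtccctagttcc

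Ccr7, the receptor for Ccl19 and Ccl21, separated no groups. Its log2 signals were 5.58, 7.48 and 7.99 in Nfkb1KO-Air lungs, against 7.66, 7.47 and 7.77 in WT-Air lungs, and 7.77, 6.49 and 8.18 in Nfkb1KO-O3 lungs, against 7.43, 7.56 and 7.14 in WT-O3 lungs. Nfkb1KO lungs were more spread than WT lungs in each exposure, and the lowest value belonged to the array with the high median. The difference over both exposures was −0.25 ± 0.37 (95% interval −1.06 to 0.55) and turned to 0.15 ± 0.30 without the pair of arrays that stood apart.

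Over the set of 13 probe sets, 0 were called for genotype in air and 0 after O3, against 0.183% and 0.409% of all probe sets tested. At an unadjusted limma p under 0.05 the counts were 5 in air and 4 after O3, against 9.3% and 7.69% of all. The groups did not overlap for 3 of 13 in air and 9 of 13 after O3, against 12.2% and 16.7% of all. Over both exposures 1 of 13 was called and 7 of 13 were under an unadjusted limma p of 0.05, against 1.03% and 11% of all probe sets. The signs were 3 higher and 10 lower in air, the same after O3, and 1 higher and 12 lower over both exposures, and the median differences were −0.45, −0.50 and −0.52, against −0.01, −0.01 and −0.02 for all probe sets. The 13 probe sets include 4 of Zbtb46 and 2 of Itgae, and the comparisons over both exposures reuse the arrays of the other comparisons. The further dendritic cell lists described below had smaller median differences over both exposures. Higher and lower were 6 and 5 for cDC1 genes (median 0.03), 5 and 6 for cDC2 genes (−0.06) and 7 and 6 for pDC genes (0.06). They were 4 and 11 for mature dendritic cell genes (−0.11), and 11 and 6 for development and growth factor genes (0.02).

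For O3 against air, 0 of 13 were called in Nfkb1KO and 0 in WT lungs, against 3.59% and 3.23% of all probe sets. At an unadjusted limma p under 0.05 these were 1 of 13, Xcr1, in Nfkb1KO and 0 of 13 in WT, against 18.1% and 15.9% of all. The interaction called 0 of 13, with 1 of 13 at an unadjusted limma p under 0.05, against 0.0188% and 5.09% of all. With 1 array left out, the calls over all probe sets ran between 411 and 1709 for O3 in Nfkb1KO (1527 with all arrays) and between 368 and 2133 for O3 in WT (1375), and members called stayed at 0. The median O3 difference of the members was −0.09 in Nfkb1KO and 0.04 in WT lungs.

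**Figure D2:**
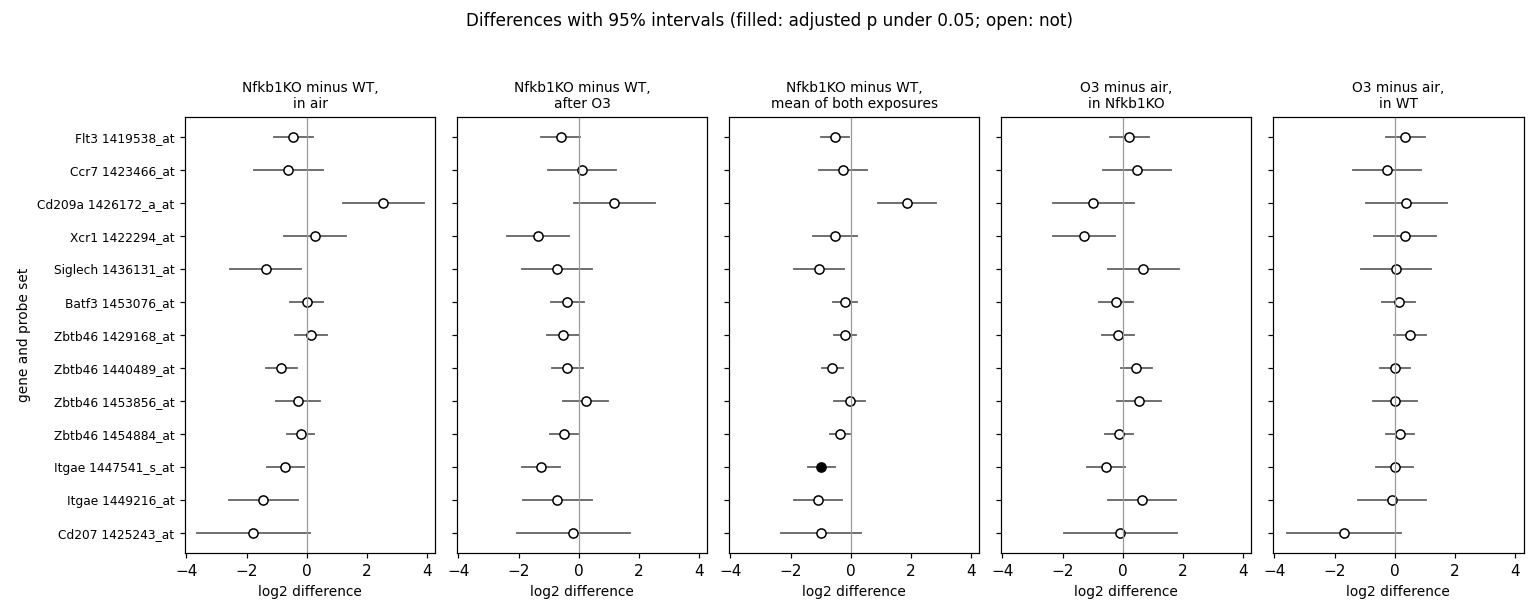
Log2 differences (horizontal axis) of the 13 probe sets (rows) with 95% intervals from the limma fit, for Nfkb1KO minus WT in air, after O3 and as the mean of both, and for O3 minus air in each genotype. The filled point is the 1 call, Itgae 1447541_s_at over both exposures at −0.98, and Cd209a lies on the right of zero at 1.86 while the other 12 lie on the left there.

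Further genes of the dendritic cell subsets were taken from lists. Of 11 further cDC1 genes measured, none was called for genotype, 1 was called lower after O3 in Nfkb1KO (Naaa, an acid amidase, −0.55, adjusted p = 0.0243) and 1 in WT lungs (Ppt1, a lysosomal thioesterase, −0.43, adjusted p = 0.0476). Over all genes 4.76% were called for O3 in Nfkb1KO and 4.31% in WT. In Nfkb1KO lungs all 11 differences for O3 were negative, with 6 of 11 at an unadjusted limma p under 0.05, against 21.6% of all genes. In WT lungs 10 of 11 were negative, with 1 of 11 at that p, against 3482 of all 17569 genes. The medians of the list were −0.43 in Nfkb1KO and −0.24 in WT. This was not particular to cDC1 genes. In Nfkb1KO lungs O3 differences were negative for 12 of 13 pDC genes (median −0.49), 8 of 8 endothelial markers (−0.32) and 5 of 6 B cell markers (−0.69). The medians of these lists in WT lungs were −0.29, −0.28 and −0.45. Mature dendritic cell genes, T cell markers and NK cell markers had medians of 0.03, 0.19 and 0.11 in Nfkb1KO lungs. The interaction was negative for 6 and positive for 5 of the 11 genes, and none was called. Gcsam, a signalling adaptor of germinal centre B cells that was named after its values were seen, had log2 signals of 1.88, 4.96 and 2.58 in Nfkb1KO-O3 lungs, against 5.49, 5.56 and 6.06 in WT-O3 lungs. The difference of −2.56 ± 0.70 was not called (adjusted p = 0.231), and 2 of the 3 Nfkb1KO-O3 lungs were under the limit of 4.37. Of 11 further cDC2 genes, none was called for genotype or for O3 in Nfkb1KO, and in WT lungs after O3 the lipid antigen-presenting gene Cd1d1 was lower (−1.27, adjusted p = 0.0257) and the transcription factor Klf4 higher (0.84, adjusted p = 0.0451). Klf4 and Cd1d1 are made by many lung cells besides cDC2.

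Among genes of mature dendritic cells, 2 chemokines rose after O3, Ccl17 in both genotypes and Ccl22 in WT lungs. The study cites earlier work in which Ccl17 was among the genes enriched in lung macrophages after O3. The cells that carried either chemokine were not separated here. Ccl17, a chemokine that draws cells with the receptor Ccr4, had log2 signals of 9.14, 8.66 and 9.57 in Nfkb1KO-O3 lungs, against 7.59, 8.06 and 7.96 in Nfkb1KO-Air lungs. It had 10.42, 10.59 and 10.05 in WT-O3 lungs, against 8.38, 7.45 and 7.34 in WT-Air lungs. Ccl17 rose after O3 in both genotypes, by 1.25 ± 0.28 in Nfkb1KO (2.38-fold, adjusted p = 0.03) and by 2.63 ± 0.28 in WT lungs (6.19-fold, adjusted p = 0.000539).

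Ccl22, a second ligand of Ccr4, had log2 signals of 5.90, 5.98 and 6.41 in Nfkb1KO-O3 lungs, against 6.28, 6.36 and 6.78 in Nfkb1KO-Air lungs, and 7.44, 8.15 and 7.78 in WT-O3 lungs, against 6.89, 5.74 and 5.54 in WT-Air lungs. It rose after O3 in WT lungs by 1.73 ± 0.36 (3.33-fold, adjusted p = 0.0206) and differed by −0.38 ± 0.36 in Nfkb1KO lungs (adjusted p = 0.639). Neither interaction was called, at −1.38 ± 0.40 for Ccl17 (adjusted p = 0.86) and −2.11 ± 0.51 for Ccl22 (adjusted p = 0.673). After O3 the genotype difference was −1.23 ± 0.28 for Ccl17 (adjusted p = 0.112) and −1.69 ± 0.36 for Ccl22 (adjusted p = 0.0745), and with both genes all Nfkb1KO-O3 lungs lay below all WT-O3 lungs.

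Fscn1 (fascin), an actin-bundling protein of mature dendritic cells that other lung cells also make, had log2 signals of 8.30, 8.73 and 9.03 in Nfkb1KO-Air lungs, against 9.75, 9.55 and 10.17 in WT-Air lungs, and 8.72, 8.25 and 9.12 in Nfkb1KO-O3 lungs, against 9.38, 9.94 and 10.53 in WT-O3 lungs. It was lower in Nfkb1KO lungs over both exposures, with a difference of −1.19 ± 0.21 (2.29-fold, adjusted p = 0.0133). Ccl5, a chemokine that NK cells and T cells make in quantity, went the other way, by 1.75 ± 0.24 over both exposures (3.37-fold higher in Nfkb1KO, adjusted p = 0.00209). Of the 15 mature dendritic cell genes measured, 1 rose and 1 fell for genotype over both exposures, 2 rose after O3 in Nfkb1KO (Ccl17 and the cytokine signalling inhibitor Socs2, by 0.39) and 2 rose after O3 in WT lungs. The shares called over all genes, in either direction, were 1.57%, 4.76% and 4.31%. The study had named Ccl5, Ccl17 and Ccl22 from these same arrays, so the counts are not independent of their choice. No gene of these lists was called for the interaction, against 0.0342% of all genes.

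Of 13 further pDC genes measured, Irf7 and Bst2 were called for genotype. Irf7, the transcription factor that amplifies type I interferon, had log2 signals of 10.66, 10.39 and 10.74 in Nfkb1KO-Air lungs, against 8.70, 8.60 and 8.88 in WT-Air lungs, and 9.81, 9.68 and 9.54 in Nfkb1KO-O3 lungs, against 8.32, 7.83 and 8.47 in WT-O3 lungs. It was higher in Nfkb1KO by 1.87 ± 0.17 in air (3.65-fold, adjusted p = 0.000445) and by 1.47 ± 0.17 after O3 (2.77-fold, adjusted p = 0.00076). Bst2 (tetherin), a surface protein of pDC that interferon induces in many cells, was higher by 0.87 ± 0.13 in air (adjusted p = 0.0143) and 0.91 ± 0.13 after O3 (adjusted p = 0.00438). No other gene of the list was called for genotype, so that 2 of 13 were called in air and 2 of 13 after O3, against 0.262% and 0.626% of all genes. The list as a whole had median genotype differences of 0.19 in air and 0.10 after O3, with 8 and 7 of 13 positive. The study had singled out Irf7 in air on these same arrays, so these counts are not independent of that choice. The pDC member Siglech went the other way (−1.05 over both exposures, not called). Irf7 was also the 1 gene of the list called for O3, lower in Nfkb1KO-O3 than in Nfkb1KO-Air lungs (−0.92, adjusted p = 0.0103). Tcf4, the factor that sets pDC identity, averaged 12.11 ± 0.20 in Nfkb1KO-Air and 12.14 ± 0.16 in WT-Air lungs (SD, n = 3 each). After O3 it averaged 11.93 ± 0.25 in Nfkb1KO-O3 and 11.98 ± 0.09 in WT-O3 lungs. The cells that carried Tcf4 in homogenised lung were not separated, so its level is not a measure of pDC.

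**Figure D3:**
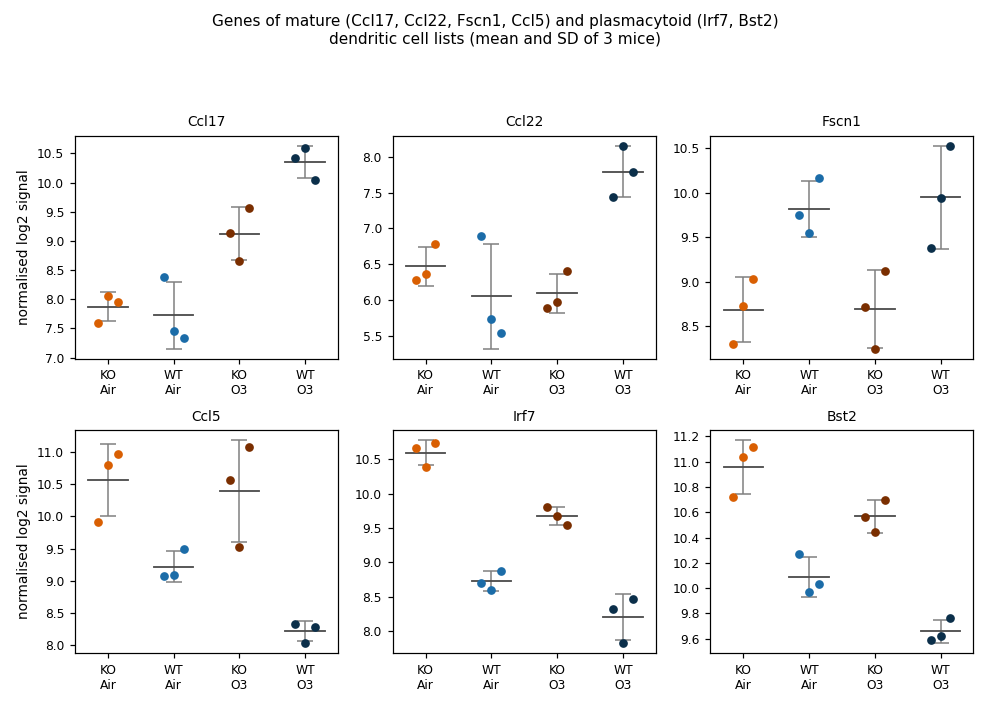
Normalised log2 signal (vertical axis, a range of its own in each panel) of 4 mature dendritic cell list genes and 2 pDC list genes in each lung, grouped left to right as Nfkb1KO-Air, WT-Air, Nfkb1KO-O3 and WT-O3, with the mean and SD of 3 mice. Ccl17 and Ccl22 are highest in WT-O3, at 10.05 to 10.59 and 7.44 to 8.15, and Fscn1 is lower and Ccl5, Irf7 and Bst2 are higher in Nfkb1KO lungs.

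Of 17 development and growth factor genes, Nfil3, a factor that cDC1 and NK cells need, rose after O3 in Nfkb1KO lungs by 2.12 ± 0.24 (4.34-fold, adjusted p = 0.00126) and was higher in Nfkb1KO than in WT lungs after O3 by 1.26 ± 0.24 (adjusted p = 0.0453). Kit, the stem cell factor receptor, fell after O3 in Nfkb1KO lungs (−0.77 ± 0.15, adjusted p = 0.0154), and no other gene of this list was called. For O3 in Nfkb1KO lungs 1 of 17 was called higher and 1 lower, and 1 of 17 was called for genotype after O3. The shares over all genes were 4.76% and 0.626%. The study had named Kit from these same arrays, so the first count is not independent of that choice. The endothelial markers Kdr and Tie1 also fell after O3 in Nfkb1KO lungs (−0.72 and −0.84, both called), and the cells that carried Kit were not separated. Flt3l, Ccl19 and Ccl21a, the ligands of Flt3 and Ccr7, were not analysed here. Of 7 MHC class II genes, which dendritic cells share with macrophages and B cells, 3 were called lower after O3 in WT lungs, against 4.31% of all genes. These were H2-Ab1, H2-Eb1 and H2-Aa, with differences of −0.75, −0.72 and −0.56 (adjusted p = 0.0218, 0.0285 and 0.0408). None was called in Nfkb1KO lungs or for genotype. At an unadjusted limma p under 0.05, 3 of 7 differed for O3 in Nfkb1KO and 6 of 7 in WT lungs, against 3788 and 3482 of all 17569 genes. The median O3 differences were −0.30 and −0.56, with 5 of 7 and 7 of 7 negative. The interaction was positive for 7 of 7 (median 0.45), with 0 of 7 at that p. A fall confined to WT lungs was thus not shown.

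**Figure D4:**
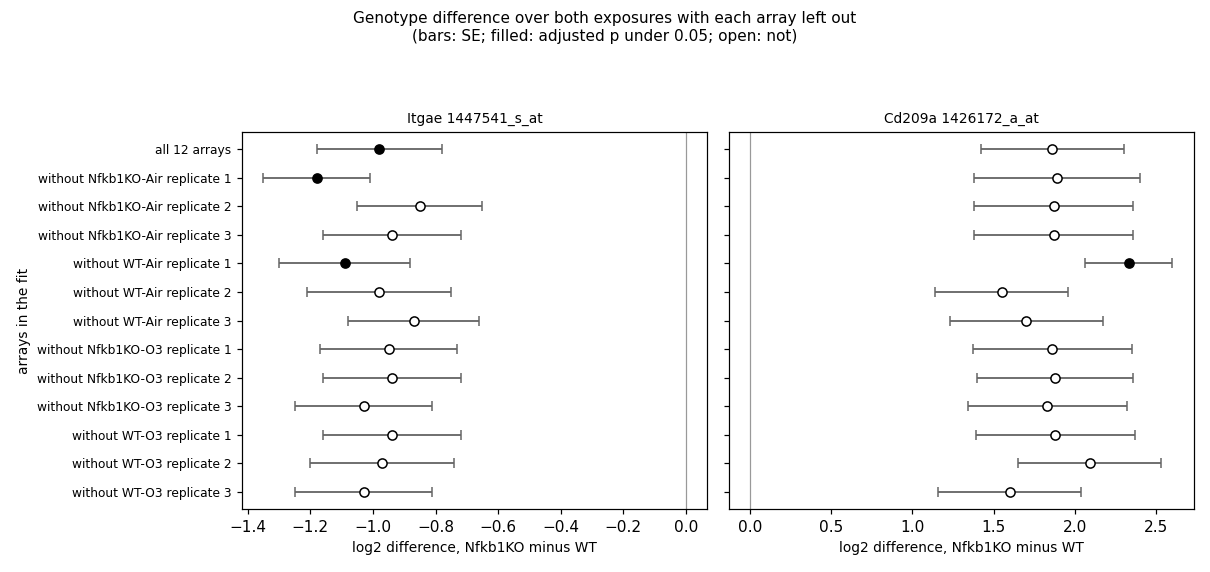
Genotype difference over both exposures (horizontal axis, Nfkb1KO minus WT, log2) of Itgae 1447541_s_at on the left and Cd209a 1426172_a_at on the right, with all 12 arrays and with each array left out in turn, bars for the SE and filled points for an adjusted p under 0.05. Itgae keeps its sign between −1.18 and −0.85 and is filled in 3 of the 13 fits shown, and Cd209a keeps its sign between 1.55 and 2.33 and is filled only without WT-Air replicate 1.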

How the data were processed

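The authors deposited linear signal intensities, 1 per probe set and array, made with MAS5 in Affymetrix Expression Console and scaled to a trimmed mean of 500 per array (versions not given in the sources used here). Detection calls were not used, and precision is limited by the number of arrays. Control probe sets (64) were left out, signals under 1 were set to 1, and values were log2 transformed and quantile normalised. Probe sets above the 20th percentile (log2 4.37) in at least 1 array were tested (42559 of 45101). Of all probe sets, 34958 had 1 gene symbol, 932 several and 9211 none. The 13 members were matched by gene number to RefSeq (GRCm38.p6).

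limma 3.58.1 in R 4.3.3 fitted 1 mean per group to all 12 arrays, with a mean-dependent trend in the prior spread (13.1 residual degrees of freedom), and p-values were adjusted by Benjamini-Hochberg over all probe sets. The mean of both genotype differences, modelled on the genotype term of the two-way test that the methods name, was added after the data were seen. Other lists used the brightest probe set of each gene. An exact test of 3 against 3 lungs cannot give a two-sided p under 0.1. Every member was named. Of the other lists, up to 4 called genes with the smallest p were named, as well as the ligands, and a few marker levels were named after they were seen. Members and lists were chosen with earlier results of these data known. Some lists hold genes that the study had picked from these arrays, such as Ccr2, Marco, Irf7, Ccl5, Ccl17, Ccl22, Gzma, Nkg7, Ncr1 and Kit. Nfkb1 itself was not analysed here, so genotype labels were not checked against it. Replicate numbers in the labels did not pair the lungs. Alternatives covered scaling, floor, filter, prior, array weights, probe set choice, samples in the fit and each array left out.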

Additional observations from a re-analysis of the deposited data

How the results depend on the processing

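Over 1954 single differences recomputed under alternative settings, 1934 kept their side of the threshold, 12 lost a call and 8 gained one. A total of 74 changed sign, all at an unadjusted p of 0.05 or more on both sides. The number of members called for genotype after O3 was 0, and 1 (Itgae) with arrays centred on their median, array weights, only the groups compared, or without WT-Air replicate 3 and Nfkb1KO-Air replicate 1. For O3 in Nfkb1KO it was 0, and 1 (Cd209a) with only the groups compared. For genotype in air it was 0. An unmoderated t-test of those 2 groups gave 1 at an unadjusted p under 0.05 (Zbtb46 1440489_at) and 0 after Benjamini-Hochberg. The study's tables name a moderated t-test for air, and the limma fit gave 5 of 13 at an unadjusted p under 0.05. Over both exposures it was 1, and 0 without the trend in the prior spread (Itgae adjusted p = 0.135). Leaving out 1 array gave 0 to 1 members for genotype in air (Cd209a without WT-Air replicate 1), 0 to 1 after O3 (Itgae without Nfkb1KO-Air replicate 1) and 0 to 2 over both exposures (both without WT-Air replicate 1), and 0 for O3 in either genotype and for the interaction. Genes of the other lists were not refitted this way.

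With the replicate block the count over both exposures was 0, since Itgae 1447541_s_at had an adjusted p of 0.069 there, and the block changed no other member's call. The deviations of same-numbered lungs correlated between −0.104 and 0.0783 over 18 pairs, so the numbers were not read as a pairing.

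Over all probe sets, the count for genotype in air was 78 and fell to 16 with arrays centred on their median and 16 without the trend. The same centring gave 137 of the 1375 calls for O3 in WT and 620 of the 1527 for O3 in Nfkb1KO, as counts and not as the same probe sets. With that centring the median probe set differed by −0.14 for genotype in air and 0.16 for O3 in Nfkb1KO, in place of −0.01 and 0. The share of calls that were higher was then 43.8% in place of 64.1% for genotype in air. Over all limma settings with no array left out, the counts ran between 73 and 381 for genotype after O3 (174 as reported), 137 and 2470 for O3 in WT, 219 and 2057 for O3 in Nfkb1KO, 0 and 15 for the interaction (8), and 206 and 679 over both exposures (439). Leaving out 1 array gave 31 to 109 in air, 84 to 195 after O3, 411 (without Nfkb1KO-O3 replicate 1) to 1709 for O3 in Nfkb1KO, 368 (without WT-O3 replicate 2) to 2133 (without Nfkb1KO-Air replicate 1) for O3 in WT, 0 to 12 for the interaction and 256 to 447 over both exposures. Cd209a stayed higher and Itgae 1447541_s_at lower in Nfkb1KO lungs in air, after O3 and over both exposures in every alternative run.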

Other observations

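The genes whose centred profile lay closest to a member over the 12 lungs were sought after the values were seen, by the mean absolute gap in log2 signal among 11477 candidates. For Cd209a, whose own mean deviation was 1.09, these were Chst4, a sulfotransferase of lymph node endothelium (gap 0.47), Steap1, a membrane metalloreductase (0.56), and Oas1a, an interferon-induced antiviral enzyme (0.61). For Itgae 1447541_s_at, whose own mean deviation was 0.57, they were Tox2 (0.26), Rasgef1a (0.30) and Olfml2a (0.31). The gaps are a description and carry no test.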
